A study of Mus musculus with 12 samples.

Results

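The 10 genes described here are markers of mesothelium: Msln, Upk3b, Upk1b, Wt1, Lrrn4, Nkain4, Efemp1, Bnc1, Anxa8 and Cldn15. They were taken by gene symbol from a table of 54146 genes, and all 10 were in it. The list was selected on measured values of these libraries, because transcripts of this kind had been seen in dormant KO libraries. Every value that compares dormant KO with another group is therefore a description and carries no test. Tests were kept for the 2 comparisons between other groups, although dormant KO still entered the spread per gene and the minimum level for testing.

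The 12 libraries hold RNA of D2A1, a mammary carcinoma line of the mouse, taken back out of the lungs of female mice after injection into the tail vein. The line carried a doxycycline-inducible histone H2B fused to green fluorescent protein (GFP) and was stained with CellVue Claret, a membrane dye that thins out as cells divide. GFP-positive cells that had kept the dye were sorted as dormant and those that had lost it as growing. Hosts with Tgfbr2, which encodes a TGF-beta receptor, floxed and deleted by a Cre driven by the Lysozyme 2 promoter (LysM-Cre) are named KO, so that the deletion lay in host myeloid cells and not in the tumour line. Controls, floxed mice by the methods and named WT in the labels, make up the other host group. Strain was not given in the sources used here, and whether a dormant and a growing library with the same number came from 1 mouse is not stated. Each of the 4 groups, dormant and growing cells from WT and from KO hosts, had 3 libraries. The column names place every WT library in library batch 1 and every KO library in library batch 2, so that host and batch cannot be told apart.

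Levels are given as TPM, a relative transcript abundance. These values divide out gene length and add up to the same total in every library, so they can be compared between genes but show only relative abundance and no depth. The number of genes above 0 ran from 11325 to 13242 in dormant WT, 14770 to 15315 in dormant KO, 14352 to 14475 in growing WT and 13406 to 14063 in growing KO. The deleted gene, Tgfbr2, was listed between 0.14 and 11.48 TPM across the 12 libraries, which were sorted for tumour cells and so do not check its deletion in myeloid cells. Of 6 mammary epithelial markers, the keratins Krt8 and Krt18 stood between 52.08 and 518.77 TPM in every library, Epcam and Cdh1 stayed at or below 5.34 TPM, and Krt14 and Krt5 were listed at 0 in all libraries of dormant WT, growing WT and growing KO. In dormant KO neither Krt14 nor Krt5 was at 0 throughout.

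Mesothelium is the flat epithelium of mesodermal origin that covers the lung as the visceral pleura and lines the other body cavities. It secretes lubricating fluid and matrix proteins, forms tight junctions and carries a surface coat, and its cells express both keratins and genes more usual in mesenchyme. The 10 genes cover several of these functions: surface proteins (Msln, Upk1b, Upk3b, Lrrn4, Nkain4), a matrix protein (Efemp1), a junction protein (Cldn15), a membrane-binding protein (Anxa8) and nuclear zinc finger proteins (Wt1, Bnc1).

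The genes lie at 10 separate places in the genome. In GENCODE M21 coordinates on GRCm38 (mm10) the surface genes are Msln (ENSMUSG00000063011.6, chr17:25748613-25754378, minus strand), Upk1b (chr16:38773184-38800328, minus), Upk3b (chr5:136038496-136046487, plus), Lrrn4 (chr2:132868305-132880891, minus) and Nkain4 (chr2:180934772-180954699, minus). The remaining genes are Efemp1 (chr11:28853204-28926743, plus), Cldn15 (chr5:136966616-136975858, plus), Anxa8 (chr14:34085981-34100571, plus), Wt1 (chr2:105126529-105173616, plus) and Bnc1 (chr7:81966672-81992292, minus). Of these, Nkain4, Anxa8 and Bnc1 overlap a gene on the opposite strand (Gm14341, A630023A22Rik and 4833418N17Rik), and the use of strand in counting was not stated. The Bnc1 neighbour 4833418N17Rik was listed at 0 in all 12 libraries. Values for Gm14341 and A630023A22Rik were not found under those names, so whether their reads entered Nkain4 and Anxa8 cannot be told.

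RefSeq promoters, each 300 bases from 250 before to 50 after the annotated start (GRCm38.p6), were at hand for 6 of the 10 genes, Lrrn4, Upk3b, Cldn15, Bnc1, Efemp1 and Anxa8. They were searched on both strands for CATTCC, the core letters read by TEAD factors, for GCGNGGGCG, a site of the kind read by the WT1 and EGR zinc fingers (Wt1 being on the list), and for TATAAA. The letters CATTCC were in 3 of the 6 against 14.7% of 32851 mouse promoters of the same length, GCGNGGGCG in 0 of 6 against 5.55%, and TATAAA in 0 of 6 against 13.6%. The promoters with CATTCC are printed because these genes were high together in 1 group, with the promoter of Efemp1 beside them as that of the most abundant gene among the 6. Sequences run 5′ to 3′ along the strand of the gene, and capitals mark CATTCC or, on the reverse strand, its complement GGAATG. The windows are chr5:136038246-136038545 (plus strand) for Upk3b, chr5:136967619-136967918 (plus) for Cldn15, chr2:132880813-132881112 (minus) for Lrrn4 and chr11:28852955-28853254 (plus) for Efemp1.
Upk3b: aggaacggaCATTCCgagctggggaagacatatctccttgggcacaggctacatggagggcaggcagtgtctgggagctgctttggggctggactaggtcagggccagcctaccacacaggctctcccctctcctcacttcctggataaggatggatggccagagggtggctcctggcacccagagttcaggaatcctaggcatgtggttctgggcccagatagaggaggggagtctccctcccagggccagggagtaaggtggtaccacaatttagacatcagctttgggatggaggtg
Cldn15: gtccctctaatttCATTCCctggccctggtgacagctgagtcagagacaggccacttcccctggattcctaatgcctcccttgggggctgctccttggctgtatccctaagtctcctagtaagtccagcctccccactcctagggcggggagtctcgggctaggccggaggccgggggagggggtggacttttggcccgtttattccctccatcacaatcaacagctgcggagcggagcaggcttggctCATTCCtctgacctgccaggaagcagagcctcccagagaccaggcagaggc
Lrrn4: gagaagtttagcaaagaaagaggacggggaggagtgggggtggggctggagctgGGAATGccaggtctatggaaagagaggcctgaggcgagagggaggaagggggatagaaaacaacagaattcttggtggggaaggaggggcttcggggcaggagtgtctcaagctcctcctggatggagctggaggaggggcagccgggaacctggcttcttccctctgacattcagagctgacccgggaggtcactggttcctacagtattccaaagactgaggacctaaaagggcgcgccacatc
Efemp1: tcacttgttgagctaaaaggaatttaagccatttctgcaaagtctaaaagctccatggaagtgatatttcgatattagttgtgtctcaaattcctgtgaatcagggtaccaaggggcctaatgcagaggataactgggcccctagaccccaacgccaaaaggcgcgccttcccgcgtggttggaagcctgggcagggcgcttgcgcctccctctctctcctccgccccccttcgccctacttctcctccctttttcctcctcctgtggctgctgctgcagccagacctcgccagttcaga
Cldn15 held the letters at 2 places on the forward strand, Upk3b at 1 on the forward and Lrrn4 at 1 on the reverse strand. The GC content was 54.3% in the Efemp1 window, 58.7% in Upk3b and 61.0% in Cldn15, against a median of 52.7% over all promoters. These matches describe letters in a window and were not measured as binding.

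The mesothelial genes were high together in dormant KO, lower but present in growing KO, and at or near 0 in both WT groups except for Msln. Summed over the 10 genes, the level was 1748, 2236 and 1761 TPM in the dormant KO libraries and 102, 109 and 181 TPM in growing KO. It was 21.7, 26.7 and 26.1 TPM in growing WT, nearly all of it Msln, and 0, 0 and 55.6 TPM in dormant WT. Without Msln the sum was 1480 to 1909 TPM in dormant KO, 69.0 to 140 TPM in growing KO, 0 to 0.63 TPM in growing WT and 0 to 0.03 TPM in dormant WT. Of the 30 values in each group (10 genes in 3 libraries), 0 were listed at 0 in dormant KO, 5 in growing KO, 25 in growing WT and 28 in dormant WT. In such bulk samples fewer cells of a type and less RNA per cell cannot be told apart.

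**Figure D1:**
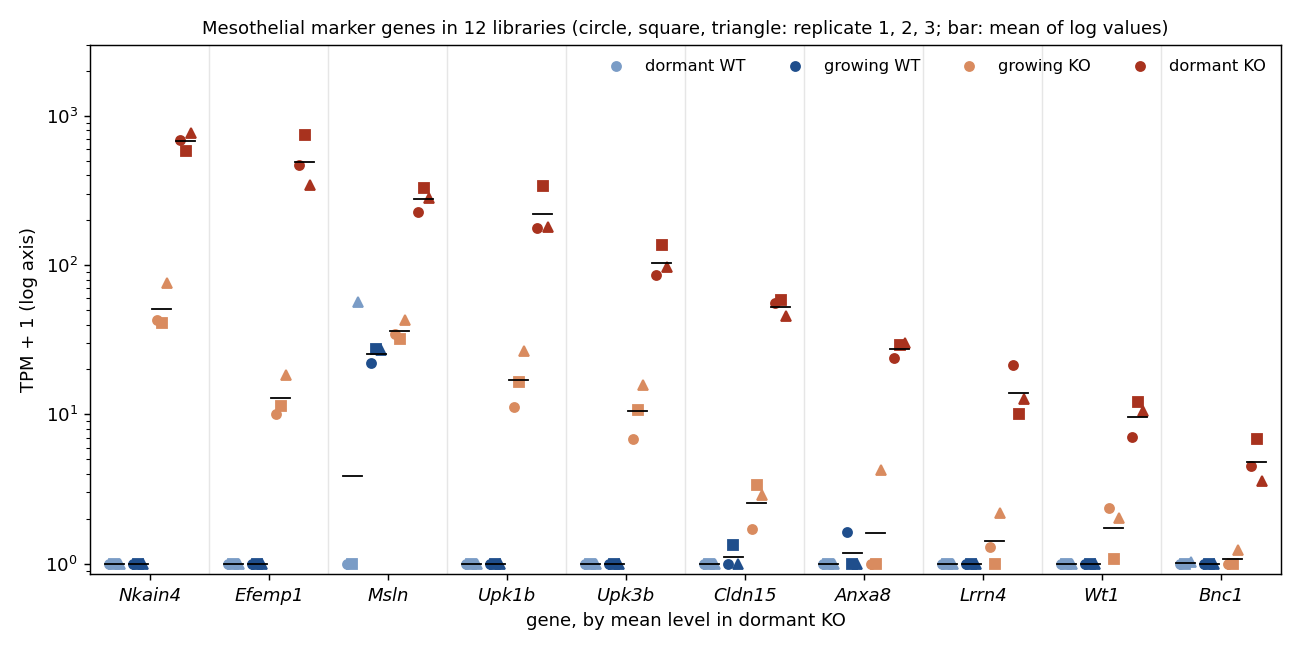
Level of each mesothelial gene in each of the 12 libraries, as TPM + 1 on a log axis, with points for libraries (shape gives the replicate), colours for groups and bars for the mean of log values. All 10 genes stand highest in dormant KO, from 2.58 TPM for the lowest value of Bnc1 to 764 TPM for the highest of Nkain4, and most points of the WT groups lie on the floor at 0 TPM.

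Nkain4, which encodes a membrane protein that interacts with the sodium pump, was the most abundant of the 10 genes in dormant KO. It stood at 689, 583 and 764 TPM there (679 ± 91.0, SD, n = 3), which ranked it 250 among all genes of that group. In growing KO it was listed at 41.6, 39.98 and 74.5 TPM and in all 6 WT libraries at 0. The 3 groups of values, dormant KO, growing KO and WT, did not overlap.

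Msln encodes mesothelin, a glycoprotein anchored in the cell surface that binds the mucin MUC16, and it was the only gene of the 10 at a substantial level in WT libraries. Dormant KO libraries had 227, 327 and 281 TPM of it, and growing KO libraries 33.4, 31.0 and 41.8 TPM. In growing WT it was 21.1, 26.4 and 26.1 TPM (24.5 ± 2.99, SD, n = 3). Dormant WT split within the group, with 0, 0 and 55.6 TPM, so that 1 library stood above every growing library and the other 2 had none listed. Msln was the only one of the 10 genes above 0 in all 3 growing WT libraries.

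Upk1b, a tetraspanin, and Upk3b, a single-pass membrane protein, are uroplakins, a family first known from the bladder surface. The dormant KO libraries had 175, 336 and 179 TPM of Upk1b, and the growing KO libraries 10.1, 15.4 and 25.5 TPM. For Upk3b the values were 84.5, 135 and 95.4 TPM (dormant KO) and 5.81, 9.65 and 14.9 TPM (growing KO). Both were listed at 0 in all 6 WT libraries, and both were highest in the same libraries, replicate 2 of dormant KO and replicate 3 of growing KO.

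Lrrn4, a membrane protein with leucine-rich repeats, was much less abundant. Its level was 20.4, 9.01 and 11.7 TPM in dormant KO, 0.3, 0 and 1.18 TPM in growing KO and 0 in the 6 WT libraries. The dormant KO libraries lay above all others, while growing KO overlapped growing WT at 0.

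Efemp1 encodes fibulin-3, a glycoprotein of the extracellular matrix. It came next to Nkain4 in dormant KO, at 465, 745 and 344 TPM (518 ± 206, SD, n = 3). Growing KO libraries had 9.08, 10.5 and 17.3 TPM, with 0 listed in all WT libraries. Its mean in dormant KO was 42.2 times that in growing KO, against 13.0 times for Nkain4. Efemp1 was thus next after Nkain4 in dormant KO but came after Nkain4, Msln and Upk1b in growing KO.

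Cldn15, a claudin that forms cation-selective pores in tight junctions, was listed at 54.9, 57.2 and 44.3 TPM in dormant KO. Its growing KO values were 0.7, 2.35 and 1.87 TPM. Of the WT libraries only growing WT replicate 2 had it, at 0.34 TPM. Anxa8, a calcium-dependent phospholipid-binding annexin, stood at 22.9, 28.1 and 29.0 TPM in dormant KO. In growing KO it was found in replicate 3 alone, at 3.23 TPM, and in growing WT in replicate 1 alone, at 0.63 TPM. For Cldn15 growing KO lay above growing WT without overlap, and for Anxa8 the growing groups overlapped at 0.

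Wt1, a zinc finger transcription factor required for development of the mesothelium and kidney, was low in every group. It was listed at 6.04, 11.1 and 9.52 TPM in dormant KO, 1.37, 0.08 and 1.01 TPM in growing KO and 0 in the WT libraries. Bnc1, basonuclin 1, another zinc finger protein, was the lowest of the 10, at 3.54, 5.88 and 2.58 TPM in dormant KO. It was at 0.24 TPM in growing KO replicate 3 and at 0.03 TPM in dormant WT replicate 3, and at 0 elsewhere. Dormant KO thus lay above every other library for both nuclear factors, by a narrower gap in TPM than for the surface genes.

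In dormant KO the order of mean levels was Nkain4, Efemp1, Msln, Upk1b, Upk3b, Cldn15, Anxa8, Lrrn4, Wt1 and Bnc1. Of the 9 neighbouring pairs in this order, 3 overlapped between libraries (Nkain4 with Efemp1, Msln with Upk1b, Lrrn4 with Wt1) and 6 did not. In growing KO the order began with Nkain4, Msln, Upk1b, Efemp1 and Upk3b, and 7 of the 9 neighbouring pairs overlapped. Dormant KO replicate 2 was the highest of its group for 7 of the 10 genes and growing KO replicate 3 for 8. The coefficient of variation in dormant KO ran from 12.4% for Anxa8 to 43.3% for Lrrn4 (median 27.1%). The median was 39.6% over the 7476 genes between the lowest and highest mean of the 10. Those genes were not matched to the 10 by level, so nothing is read from the difference.

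The dormant KO differences that chose the list were as follows. On the scale of mean log2(TPM + 1), dormant KO minus dormant WT was 9.40 for Nkain4, 8.95 for Efemp1, 7.78 for Upk1b, 6.70 for Upk3b and 6.17 for Msln. It was 5.72 for Cldn15, 4.78 for Anxa8, 3.80 for Lrrn4, 3.27 for Wt1 and 2.25 for Bnc1. The median was 5.95 against 0.17 over the 13002 genes that reached at least 1 TPM in at least 3 libraries. All 10 lay above dormant WT without overlap, as did 18.6% of the genes tested, and nothing is read from this count because it used the values that chose the genes. Of the 10, 5 (Wt1, Lrrn4, Bnc1, Anxa8 and Cldn15) passed the minimum only through dormant KO. Where dormant WT was listed at 0, these differences depend on the 1 TPM added before taking logs, and no fold is given.

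Within KO hosts, which share a library batch, all 10 genes also stood higher in dormant than in growing libraries without overlap, as did 16.4% of the genes tested (again a comparison that uses dormant KO). The ratio of mean TPM, dormant over growing, was lowest for Msln at 7.87. It was between 10.4 and 13.5 for Upk3b, Wt1, Nkain4 and Upk1b, and between 24.7 and 31.8 for Anxa8, Lrrn4 and Cldn15. Efemp1 reached 42.2. The ratios for Bnc1, the highest of the 10, and Anxa8 each rest on a single growing library above 0, growing KO replicate 3, and that for Lrrn4 on 2. The median ratio was 19.1, beside 0.758 over the 12174 genes with a ratio. Differences between these ratios were not tested.

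Growing KO against growing WT asks whether the genes also differ between hosts in cells sorted as growing, without dormant KO in the difference. The genes and tests were chosen with earlier results of these data known, so the comparison may not be free of that choice. Nkain4, Upk1b, Efemp1 and Upk3b were higher in growing KO, which makes 4 of the 10 genes, and 0 were lower. Over all genes tested, 93 of 13002 were called higher, a share of 0.715%. A gene was called where limma gave a two-sided Benjamini-Hochberg adjusted p of at most 0.05 over all 13002 genes and a difference of at least 1 in mean log2(TPM + 1). Growing KO was the group of the same library batch as dormant KO, and the difference between hosts in growing cells cannot be told apart from that between batches.

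Nkain4 differed most, by 5.67 ± 0.42 (SE) on the log2(TPM + 1) scale with an adjusted p of 0.00011 (limma). Upk1b followed at 4.08 ± 0.51 (adjusted p = 0.00225), Efemp1 at 3.68 ± 0.48 (adjusted p = 0.00332) and Upk3b at 3.39 ± 0.49 (adjusted p = 0.0056). All 3 growing KO libraries had each of these genes and all 3 growing WT libraries were listed at 0, so that the size of the difference depends on the 1 TPM added. With 5 TPM added, the difference of Upk3b was 1.55 with an adjusted p of 0.064 (limma) and its call was lost.

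The other 6 genes did not pass the test in growing KO against growing WT. Of these, all but Msln reached the minimum level for testing only through dormant KO, so their values say little about the growing groups. Cldn15 differed by 1.20 ± 0.45 (SE) with an unadjusted p of 0.0214 and an adjusted p of 0.462 (limma), and Wt1 by 0.79 ± 0.40 (adjusted p = 0.766). Lrrn4, Anxa8 and Bnc1 differed by 0.50 ± 0.42, 0.46 ± 0.57 and 0.10 ± 0.31, each with an adjusted p of 1, at levels of at most 3.23 TPM. The Msln difference was 0.51 ± 1.20 (adjusted p = 1), although its growing KO libraries (31.0 to 41.8 TPM) all lay above growing WT (21.1 to 26.4 TPM). That error comes from 1 spread per gene over all groups, dormant WT included, where Msln was listed at 0 or 55.6 TPM. In a fit of the 2 growing groups alone it was 0.51 ± 0.18 (SE), with an adjusted p of 0.206 (limma). Over all fits the adjusted p ranged from 0.206 to 1. Growing KO lay above growing WT without overlap for 7 of the 10 genes (all but Lrrn4, Anxa8 and Bnc1), as it did for 13.3% of all genes tested.

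**Figure D2:**
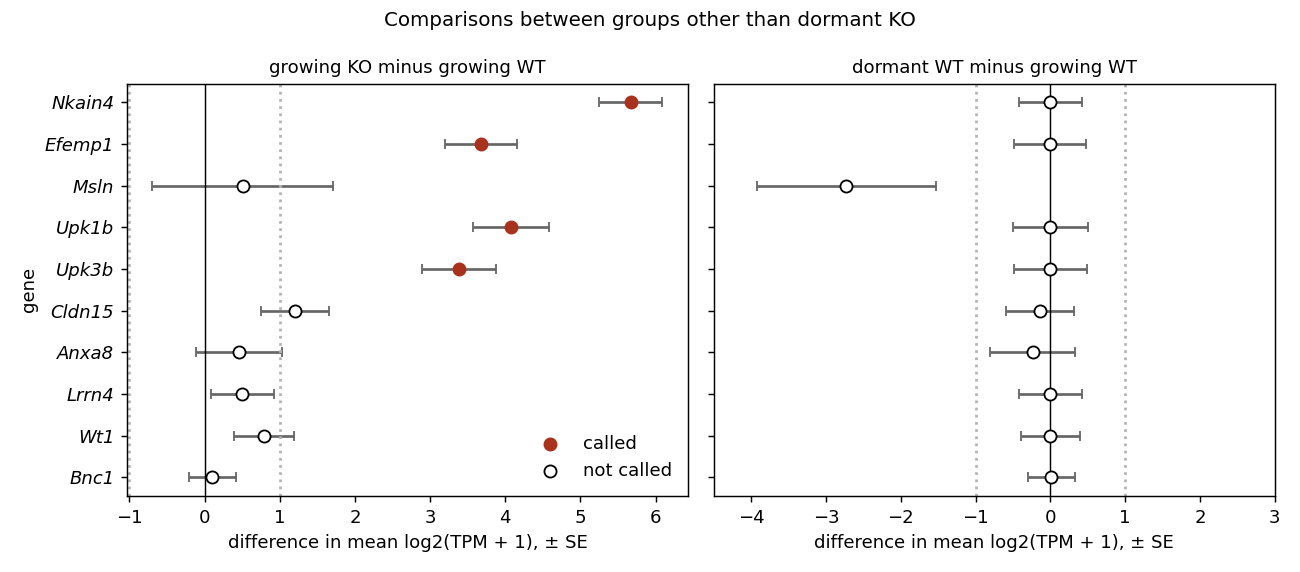
Difference in mean log2(TPM + 1) for each mesothelial gene, growing KO minus growing WT on the left and dormant WT minus growing WT on the right, with limma standard errors as bars, filled points for genes called and dotted lines at a difference of 1. Nkain4 (5.67), Upk1b (4.08), Efemp1 (3.68) and Upk3b (3.39) are called on the left, and none on the right, where Msln (-2.73) stands apart with a wide error.

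Dormant WT against growing WT compares the states within control hosts and within 1 library batch. None of the 10 genes was called by limma in either direction (0 of 10), and 1 of them, Msln, had an unadjusted p under 0.05. Over all genes 977 of 13002 were called, or 7.51%, of which 24.6% were higher in dormant WT (50.6% with quantile normalization, which moved the median difference of all genes from -0.35 to 0.04). The 6 genes at 0 in all 6 libraries were Upk1b, Upk3b, Nkain4, Lrrn4, Efemp1 and Wt1, and Cldn15, Anxa8 and Bnc1 stayed below 1 TPM, so that the count for these 9 genes was fixed by values near 0. As dormant WT values were also in view when the list was chosen, nothing is read from it.

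Msln had a lower mean in dormant WT, by a difference of -2.73 ± 1.20 (SE) on the log2(TPM + 1) scale, with an unadjusted p of 0.0434 and an adjusted p of 0.195 (limma). This rested on the libraries at 0, TPM giving no depth to say how many reads a 0 allows. Without dormant WT replicate 3, the library at 55.6 TPM, the difference was -4.67 with an adjusted p of 2.7e-05 and Msln was called lower. Over all fits the adjusted p ranged from 2.7e-05 to 0.47, with the difference between -4.90 and -1.36. Cldn15 (-0.14 ± 0.45), Anxa8 (-0.23 ± 0.57) and Bnc1 (0.01 ± 0.31) rested on values below 1 TPM.

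The share of Msln in the mesothelial signal differed between the groups. It made up 13.0%, 14.6% and 16.0% of the summed mesothelial TPM in dormant KO and 32.6%, 28.4% and 23.0% in growing KO. In growing WT its share was 97.1%, 98.7% and 100%, and in dormant WT replicate 3 it was 99.9%. Across the 12 libraries the Pearson r of log2(TPM + 1) between pairs of the 10 genes was at least 0.706 (45 pairs, median 0.933), values that share libraries and follow the differences between the groups.

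**Figure D3:**
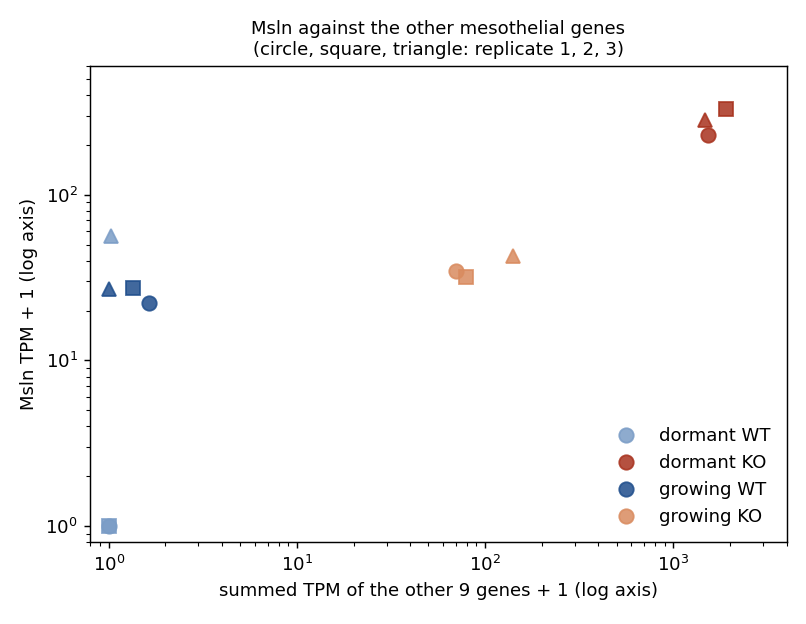
Msln TPM + 1 against the summed TPM + 1 of the other 9 mesothelial genes in the 12 libraries, both on log axes, coloured by group with shapes for replicates. In growing WT and dormant WT replicate 3 Msln stands at 21.1 to 55.6 TPM while the other 9 genes sum to at most 0.63 TPM, and in the KO groups both are present.

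A further 14 mesothelial genes, keratins, surface proteins and enzymes known from this tissue, were examined beside the 10. Calb2, which encodes calretinin, a diagnostic marker of mesothelioma, was listed at 0 in all 12 libraries, and Cdh2, N-cadherin, at no more than 1.43 TPM. The genes of the 14 with the highest mean in dormant KO were Krt19, Gpm6a, Pdpn and Krt18. Krt19, a keratin of simple epithelia, stood at 267, 418 and 252 TPM in dormant KO against 11.3 to 14.2 TPM in growing KO, at most 7.02 TPM in growing WT and at most 0.59 TPM in dormant WT. Gpm6a, a membrane glycoprotein also found in neurons, stood at 193, 375 and 188 TPM in dormant KO against 0.12 to 10.1 TPM in growing KO, with 0 in the WT libraries. Pdpn, podoplanin, which is also a marker of alveolar type 1 cells, stood at 197, 203 and 231 TPM in dormant KO and 6.77 to 13.6 TPM in growing KO. Krt18 differed from these, with 159 to 249 TPM in dormant KO and 475 to 519 TPM in growing KO, and 131 to 327 TPM in the WT libraries.

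In growing KO against growing WT, 12 of the 14 further genes were tested and 0 were called by limma, with 7 at an unadjusted p under 0.05. Over all 13002 genes, 0.715% were called higher and 979 had an unadjusted p under 0.05. Krt7, Gpm6a, Rspo1 and Ptgis reached the minimum level for testing only through dormant KO, so nothing is read from these counts or from their median. The largest differences were 3.11 ± 0.74 (SE) for Pdpn (adjusted p = 0.0977) and 2.74 ± 0.75 for Krt19 (adjusted p = 0.171). The median difference of the 12 was 1.40, beside 0.02 over all genes and 0.995 over the 10 mesothelial genes. In dormant WT against growing WT 0 of the 12 were called (7.51% of all genes were), 2 had an unadjusted p under 0.05, and the median difference was 0.03, against -0.35 over all genes. Dormant KO lay above dormant WT without overlap for 9 of the 14, beside 18.6% of all genes tested, and Krt8 lay below it, at 52.1 to 106 TPM against 183 to 381 TPM. Nothing is read from this count either, since dormant KO values led to the choice of mesothelial genes.

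Relatives of the 10 genes in their own families differed among themselves. Of 44 relatives (43 in the table), 19 reached the minimum level for testing. The other uroplakins Upk1a, Upk2, Upk3a and Upk3bl were listed at 0 in all dormant KO libraries, as were the mesothelin-like Mslnl, the relatives Nkain1, Nkain2 and Nkain3, and Lrrn2 and Lrrn3. Efemp2, fibulin-4, was listed at 3.42 to 12.7 TPM in dormant KO, 62.0 to 88.8 TPM in the 6 growing libraries, and 18.1, 0.35 and 98.1 TPM in dormant WT, where it overlapped every other group. Among annexins Anxa2, Anxa3, Anxa1 and Anxa5 had the highest means in dormant KO, at 874, 550, 491 and 333 TPM, beside 26.6 TPM for Anxa8. For Anxa2 the dormant KO libraries (776 to 999 TPM) lay below all others (2355 to 3668 TPM), as they did for Anxa1 and Anxa5.

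Claudins fell into both kinds. Cldn9 was at 0 to 0.03 TPM in dormant KO and 56.8 to 112 TPM in dormant WT, the reverse of Cldn15, and was called higher in dormant WT than in growing WT (1.91 ± 0.46 SE, adjusted p = 0.0269, limma). Anxa11 was called lower in the same comparison (-2.11 ± 0.58, adjusted p = 0.0455), which makes 2 of the 19 relatives tested, beside 7.51% of all genes. Cldn5, the claudin of endothelium, was at 156 to 314 TPM in dormant KO, and Cldn18, a lung epithelial claudin, at 15.6 to 36.6 TPM. In growing KO against growing WT 0 of the 19 relatives were called by limma (0.715% of all genes were called higher), with 2 at an unadjusted p under 0.05 (Cldn3 and Cldn5), as had 979 of all 13002 genes. Among the 19, Cldn1, Cldn7, Cldn10 and Cldn18 reached the minimum level for testing only through dormant KO. Cldn1 and Cldn7 were at 0 in both growing groups and could not be called there. Nothing is read from the counts of relatives called.

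By Pearson r over the 12 libraries, the 8 genes whose log2(TPM + 1) ran most like the mean of the 10 genes were Igfbp5 (0.996), C2 (0.993), Emcn (0.991), Gpc3 (0.990), Fam180a (0.990), RP23-410I12.2 (0.989), Nbl1 (0.988) and Igfbp7 (0.988). Igfbp5 and Igfbp7 bind insulin-like growth factors, C2 is a complement component, Emcn is a sialomucin of endothelium and Gpc3 a surface proteoglycan. Igfbp5 was listed at 212, 244 and 211 TPM in dormant KO, 4.14, 3.62 and 15.4 TPM in growing KO and at most 0.01 TPM in WT libraries. An r above 0.95 was reached by 102 of 12921 genes, or 0.789%, and as the 12 points form 4 groups, with 1 group far above the rest, such values mostly describe that step. Means in growing KO were between 1.73 TPM (RP23-410I12.2) and 10.8 TPM (Gpc3) for the 8 genes, and as they were picked for this likeness no test is given.

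Some markers of other lung cells were also higher in growing KO than in growing WT, and their part in these results was not tested. Of 40 such markers in 6 lists, 38 were tested, 6 were called higher (0.715% of all genes were) and 0 lower, and the difference was positive for 28 and negative for 9 (Napsa, at -1.25, was the most negative). Markers such as Slc34a2, Lamp3, Cdh5, Sftpb, Clic5, Akap5, Tek, Tie1 and Tcf21 reached the minimum level for testing only through dormant KO. Nothing is read from these counts for that reason. The sums are carried by single genes, Sftpc making up 89.1% of the alveolar type 2 mean in growing KO, Scgb1a1 89.3% of the club and ciliated, Lyz2 87.1% of the macrophage and Dcn 75.0% of the fibroblast mean. Summed TPM of 8 alveolar type 2 markers was 457 to 465 in growing KO against 53.4 to 97.3 in growing WT, with Sftpc and Sftpa1 called higher. The 6 club and ciliated markers summed to 1030 to 1071 against 294 to 315 TPM, with Cyp2f2 called. For 8 fibroblast markers the sums were 323 to 347 against 60.7 to 95.7 TPM, with Dcn and Col3a1 called, and for 6 macrophage markers they were 114 to 158 against 29.1 to 72.1 TPM, with Lyz2 called. Summed levels of the 6 alveolar type 1 markers were 51.5 to 60.3 against 29.8 to 36.5 TPM and those of the 6 endothelial markers 3.49 to 28.6 against 2.53 to 9.05 TPM, with 0 called in either list. Listed at 0 in all growing KO libraries were Foxj1 of ciliated cells (at 0 in all 12 libraries), Tcf21 of fibroblasts, Marco of alveolar macrophages and Akap5 of alveolar type 1 cells. The alveolar type 2 list, the endothelial list and the 10 mesothelial genes had 0 genes at 0 throughout that group.

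In dormant KO the sum of each of these lists was higher than in growing KO, while single markers differed. Of the 40 markers, 27 lay above growing KO without overlap, as did 16.4% of all genes tested, and 2 below it, Lum (0.01 to 12.4 against 34.5 to 41.8 TPM) and Aqp5 (3.38 to 26.3 against 29.0 to 40.4 TPM). Not all 40 reached the minimum level on which that share rests. As the lists were chosen with earlier results of these data known, nothing is read from this count. The alveolar type 2 sum was 40072 to 42411 TPM, 89.6 times the growing KO mean, against 14.6 times for the 10 mesothelial genes. The corresponding ratios were 22.8 for macrophage, 18.5 for endothelial, 15.9 for alveolar type 1, 4.09 for fibroblast and 1.96 for club and ciliated markers.

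In dormant WT, where 8 of the 10 mesothelial genes were listed at 0 in all libraries, the sums of the other lists were not at 0. Macrophage markers summed to 874 to 1596 TPM, above growing WT (29.1 to 72.1 TPM), with Ptprc, Lyz2 and Cd68 called higher by limma. Called lower were Rtkn2 of the alveolar type 1 list (-2.42, adjusted p = 0.0096) and Dcn of the fibroblast list (-2.98, adjusted p = 0.0119), beside 7.51% of all genes called in either direction. Alveolar type 2 markers summed to 49.0 to 141 TPM, endothelial markers to no more than 79.7 TPM and fibroblast markers to 19.2 to 88.9 TPM. The alveolar type 1 sum was 1.4 to 84.2 TPM, 85.6% of its mean being Aqp5, and the club and ciliated sum was 8.47 to 248.6 TPM. The 10 mesothelial genes ran from 0 to 55.6 TPM, nearly all of it Msln.

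**Figure D4:**
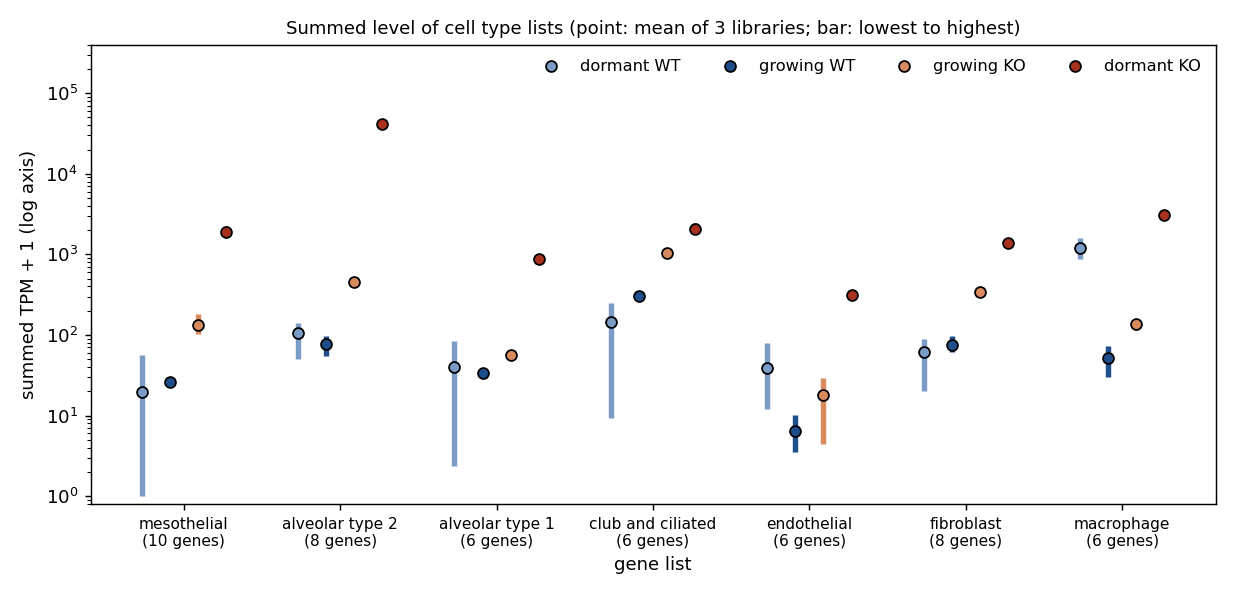
Summed TPM + 1, on a log axis, of the 10 mesothelial genes and 6 lists of lung cell markers in the 4 groups, with points for the mean of 3 libraries and bars from the lowest to the highest library. Every list stands highest in dormant KO, and growing KO lies above growing WT in all libraries for each list but the endothelial one, where 3.49 to 28.6 TPM overlaps 2.53 to 9.05 TPM.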

How the data were processed

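RNA was measured in 12 libraries, 3 per group. By the methods, small aliquots of sorted cells were lysed directly and amplified by Smart-seq2, while a TruSeq mRNA kit is named in the labels. Per the submitters' processing notes, the authors used bcl2fastq 2.20, cutadapt 1.18, STAR 2.5.2b and RSEM 1.3.3 on mm10, and the methods name GENCODE M12. The deposited values are TPM, with no counts, so the depth is unknown and the precision is the spread between 3 libraries. RSEM shares reads between similar sequences by estimate. A further 30 per-sample columns that could not be mapped to labelled samples were not used.

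TPM was transformed to log2(TPM + 1), and the 13002 genes with at least 1 TPM in at least 3 libraries were fitted with limma 3.58.1 (R 4.3.3, trended eBayes, 1 mean for each of 4 groups). Replicates are samples so numbered in the labels, and legends speak of 3 mice per group. Scripts were tested on simulated data. The genes, the lists and the tests were chosen with earlier results of these data known, so no p was adjusted over a list alone. The naming rule gave all 10 genes in every library; from the 14 further mesothelial genes and the 44 relatives every gene called, at most 6 per list, and the 4 highest in dormant KO; the 8 genes most alike over 12 libraries and the 5 most alike over the 9 without dormant KO; and other cell types as sums. Further genes of the lists named beside these were chosen after their values were seen. Gene IDs were matched to GENCODE M21, where the version of the Msln ID differed and the other 9 were the same. Alternatives were other pseudocounts, filters and scalings, array weights, a replicate block and a fit of only the groups compared. Each library of the groups compared, and none of the other groups, was also left out in turn.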

Additional observations from a re-analysis of the deposited data

How the results depend on the processing

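The 4 genes called in growing KO against growing WT were Nkain4, Upk1b, Efemp1 and Upk3b in every alternative except a pseudocount of 5, which left 3. Leaving out in turn each library of the 2 groups compared gave 4 of the 10 genes throughout in that comparison. In dormant WT against growing WT it gave between 0 and 1. The 1 was Msln without dormant WT replicate 3, where 2 dormant WT libraries at 0 remain. No library of the other groups was left out of these fits. Same-numbered libraries of the groups compared (growing KO with growing WT, dormant WT with growing WT) did not deviate together, and with a replicate block the counts were again 4 and 0. Single genes turned direction in 3 results under 2 alternatives, none of them called: Anxa8 in growing KO against growing WT without growing KO replicate 3 (-0.23 to 0.81 over the libraries left out, against 0.46), and with quantile normalization Anxa8 (0.13) and Cldn15 (0.21) in dormant WT against growing WT. The number of all genes called moved more. From 127 in growing KO against growing WT it went to 516 with array weights, 308 in a fit of only those groups and 73 to 89 without single libraries. From 977 in dormant WT against growing WT it went to 310 with array weights, 637 without a filter and 452 to 1930 without single libraries. The cause was not tested. The dormant KO minus dormant WT differences kept their direction under the other pseudocounts and scalings and without single libraries, the alternatives run for them, their size moving most with the pseudocount (Nkain4 7.09 to 12.7, Bnc1 0.83 to 5.15). TPM sets no limit for a 0, so genes listed at 0 may lie below detection.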

Other observations

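Without the dormant KO libraries, another set of genes ran most like the mean of the 10 mesothelial genes. Over the remaining 9 libraries the highest Pearson r were those of RP23-28F1.1 (0.982), RP23-31K14.3 (0.982), Enkur (0.979), Pom121 (0.979) and Ccl11 (0.979), and 56 of 12833 genes, or 0.436%, had an r above 0.95. Ccl11, which encodes the eosinophil chemoattractant eotaxin, was listed at 2.41, 3.08 and 7.01 TPM in growing KO and at 0 in the other 9 libraries, dormant KO included. Enkur, a protein of sperm and cilia, was listed at 5.85, 4.62 and 14.3 TPM in growing KO, at 0 in both WT groups and at no more than 2.07 TPM in dormant KO. Both genes were lower in dormant KO than in growing KO without overlap, the reverse of the 10 mesothelial genes, and as they were picked by their values in growing KO this was not tested.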
